A study of Mus musculus with 8 samples.

Results

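Transcripts of 10 genes that serve the uptake of dying cells by macrophages were measured in bone marrow-derived macrophages with and without Rbpj. The genes were chosen by name, with no measured value in the rule but with earlier results of these data known. They were the C1q chain genes C1qa, C1qb and C1qc, the receptors Mertk and Axl, their ligands Gas6 and Pros1, and the scavenger receptors Cd36, Msr1 and Stab1. All 10 were found among the 24421 genes of the table, and all 10 passed the filter of at least 1 CPM (a library's counts scaled to a common total of reads in genes) in at least 2 libraries that left 12194 genes (49.9%) for testing. The filter asked nothing more of them, since the lowest member value in any library was 11.5 CPM.

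The 8 poly-A RNA libraries fell into 4 groups of 2. RbpjKO cells came from mice with floxed alleles of Rbpj and a LysMCre transgene, which deletes in the myeloid lineage. They were taken after 2 days with TNF at 40 ng/ml (KO TNF) or at day 0 without TNF (KO day 0), and wild-type control cells were taken after the same TNF treatment (WT TNF) or at day 0 (WT day 0). The Cre and flox status of the control mice, their age and the number of mice behind each library are not stated in the labels. There was no 2-day group without TNF, so an effect of TNF and an effect of 2 days in culture cannot be told apart, and "after TNF" below covers both. The series reports 2 independent experiments, and each group held a replicate 1 and a replicate 2. Whether separate animals were used is not stated, and the p-values therefore measure the spread between these libraries alone, which may be technical.

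Efferocytosis is the removal of dying cells by phagocytes. MERTK and AXL are receptor tyrosine kinases of the TAM family that do not bind dying cells directly: GAS6 and protein S, the product of Pros1, bridge them to phosphatidylserine exposed on the dying cell. C1q, the recognition molecule of the classical complement pathway, is built from A, B and C chains, is made largely by macrophages and coats dying cells so that they can be taken up. CD36, MSR1 (scavenger receptor A) and STAB1 (stabilin-1) bind modified lipoproteins, and CD36 and stabilin-1 also take part in the binding of dying cells. RBP-J, the product of Rbpj, binds DNA together with the active Notch receptor and also limits osteoclast formation in response to TNF.

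Depth ranged from 9855859 to 35653203 reads in genes, with the lowest depth in KO TNF replicate 1, and 14491 to 15773 genes had at least 1 read. Rbpj itself had 30.0 and 21.4 CPM in KO TNF cells and 38.9 and 31.8 CPM in KO day 0 cells, against 226 and 178 CPM in WT TNF cells and 215 and 216 CPM in WT day 0 cells. Its levels matched the genotype labels in all 8 libraries. The 8 macrophage markers, Csf1r and Mpeg1 among them, summed to 6119 and 7619 CPM in KO TNF, 8793 and 16830 CPM in KO day 0, 10032 and 14429 CPM in WT TNF and 7567 and 10169 CPM in WT day 0 libraries. Mpeg1 was the largest part of the sum in KO day 0 (4193 and 7383 CPM), WT TNF (3839 and 7223 CPM) and WT day 0 libraries (3433 and 4002 CPM). It had 2009 and 2531 CPM in KO TNF libraries. Csf1r was instead a little higher in KO TNF (2078 and 3266 CPM) than in KO day 0 libraries (1863 and 3028 CPM). Fcgr1 had 5.17 and 5.96 CPM in KO TNF, against 167 and 440 CPM in KO day 0 libraries. In wild-type libraries Fcgr1 had 12.5 and 43.2 CPM after TNF, against 149 and 331 CPM at day 0. The sum was higher after TNF there, as was Lyz2, with 26.6 and 102 CPM against 7.65 and 30.3 CPM. The 8 osteoclast markers, such as Ctsk and Acp5, summed to 18466 and 43963 CPM in KO TNF and 6554 and 4898 CPM in WT TNF libraries, against 132 and 200 CPM in KO day 0 and 128 and 157 CPM in WT day 0 libraries. After TNF, then, the cells carried osteoclast transcripts, and more so without Rbpj. In bulk RNA, fewer cells of a type and less RNA per cell cannot be told apart, and the part of this shift in the results on the 10 genes was not tested.

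The 3 C1q genes lie next to each other on mouse chromosome 4, all on the minus strand (GRCm38, positions from GENCODE M21): C1qb at chr4:136880129-136886187, C1qc at chr4:136889804-136893065 and C1qa at chr4:136895917-136898803. The gaps between them are 3616 and 2851 bp, and the 3 genes span 18675 bp. Promoter sequences from RefSeq (GRCm38.p6, 250 bases before to 50 after the annotated start) matched 8 of the 10 genes by symbol, with C1qa and Msr1 unmatched. Shown 5′ to 3′ are C1qb (chr4:136886151-136886450, minus strand), C1qc (chr4:136892865-136893164, minus strand) and Stab1 (chr14:31168592-31168891, minus strand), whose levels went together over the libraries, and Cd36 (chr5:17835847-17836146, minus strand), the only one of the 8 windows that held the searched letters of RBP-J. Capitals mark the motif matches described next.
C1qb: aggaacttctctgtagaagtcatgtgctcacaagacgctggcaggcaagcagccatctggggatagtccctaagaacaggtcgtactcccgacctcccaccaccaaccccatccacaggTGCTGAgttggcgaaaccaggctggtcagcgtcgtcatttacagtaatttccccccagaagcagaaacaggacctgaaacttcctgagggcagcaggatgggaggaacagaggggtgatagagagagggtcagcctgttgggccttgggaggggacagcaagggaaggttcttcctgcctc
C1qc: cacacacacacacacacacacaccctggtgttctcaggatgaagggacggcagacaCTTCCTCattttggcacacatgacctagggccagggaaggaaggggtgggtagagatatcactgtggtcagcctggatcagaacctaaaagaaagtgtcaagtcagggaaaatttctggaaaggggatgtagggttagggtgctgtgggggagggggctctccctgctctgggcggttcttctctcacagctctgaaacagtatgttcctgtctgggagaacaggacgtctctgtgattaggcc
Stab1: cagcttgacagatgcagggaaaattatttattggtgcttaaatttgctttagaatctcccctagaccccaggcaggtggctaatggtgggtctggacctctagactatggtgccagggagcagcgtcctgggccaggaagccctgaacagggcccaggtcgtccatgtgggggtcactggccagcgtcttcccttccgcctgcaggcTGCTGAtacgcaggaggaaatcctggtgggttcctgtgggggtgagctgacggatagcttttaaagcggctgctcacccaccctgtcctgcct
Cd36: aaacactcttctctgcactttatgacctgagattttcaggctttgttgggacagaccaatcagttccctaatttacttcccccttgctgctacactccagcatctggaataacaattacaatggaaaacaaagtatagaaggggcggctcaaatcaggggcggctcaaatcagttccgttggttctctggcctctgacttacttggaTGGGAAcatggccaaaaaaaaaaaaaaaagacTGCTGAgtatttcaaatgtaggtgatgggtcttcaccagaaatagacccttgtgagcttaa

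The letters of 6 motifs were searched on both strands of the 8 windows, and matches are a description of letters, not of binding. The MAF core TGCTGA, found in 19.5% of 32851 mouse promoters of the same length, stood at -131 in C1qb, -43 in Stab1 and -11 in Cd36, counted from the annotated start. The PU.1 core GAGGAAG (13.6% of promoters) stood, as its reverse complement CTTCCTC, at -194 in C1qc and at -131 in Axl. The RBP-J core TGGGAA (25.6% of promoters) stood at -43 in Cd36 and in no other member window. The other motifs were AP-1 (TGANTCA, 7.81% of promoters), NF-kB (GGGANNTNCC, 4.01%) and the interferon response element (GAAANNGAAA, 3.44%), of which an NF-kB match at -81 in Axl was the only match. The windows of Mertk, Gas6 and Pros1 held none of the 6 motifs, although Gas6 and Pros1 also went with the C1q genes over the libraries. The Cd36 window is at a start inside the longer GENCODE gene, and other starts were not searched.

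Tests used limma on log2(CPM + 0.5) over all 12194 genes, 2-sided, with Benjamini-Hochberg adjustment over all genes of a contrast and a threshold of 0.05. A ± after a log2 difference is the standard error of that fit. Because same-numbered libraries deviated together, each result is also given from a fit that takes the replicate number as a block, where the call differs. Fold values within a replicate number are ratios of CPM. Comparisons of KO TNF with KO day 0 and with WT TNF share the KO TNF libraries, and the other pairs share groups likewise, so the contrasts are not independent of each other.

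**Figure D1:**
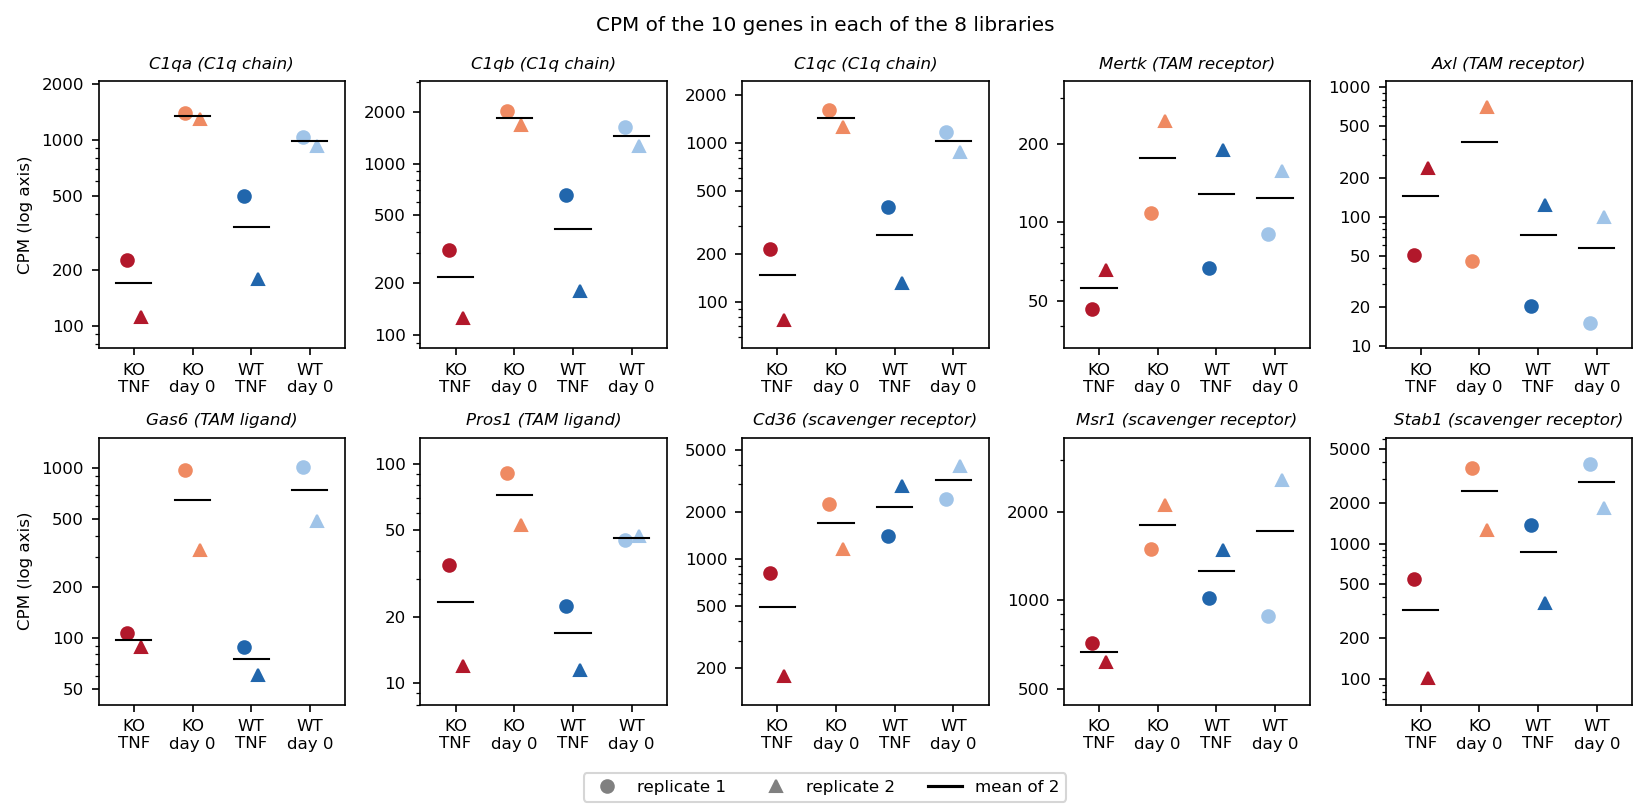
CPM of the 10 genes (log axis, 1 panel per gene) in KO TNF, KO day 0, WT TNF and WT day 0 libraries; circles are replicate 1, triangles replicate 2 and lines the mean of 2. In each genotype both TNF libraries were below both day 0 libraries for C1qa, C1qb, C1qc, Gas6, Pros1 and Stab1. Of all tested genes, 25.2% showed that order in RbpjKO and 22.6% in wild-type cells. Axl was higher in replicate 2 than in replicate 1 of every group.

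The 3 C1q genes fell in RbpjKO cells given TNF, and were the members that passed the test without the block there. C1qa, the A chain gene, had 227 and 112 CPM in KO TNF cells, against 1396 and 1302 CPM in KO day 0 cells. C1qb, for the B chain, had 311 and 125 CPM in KO TNF cells, against 2019 and 1676 CPM in KO day 0 cells. C1qc, for the C chain, had 216 and 76.8 CPM in KO TNF cells, against 1615 and 1260.0 CPM in KO day 0 cells. For each chain the higher KO TNF library was far below the lower KO day 0 library. The log2 differences were -3.08 ± 0.54 for C1qa (adjusted p = 0.0297), -3.22 ± 0.67 for C1qb (adjusted p = 0.0482) and -3.46 ± 0.65 for C1qc (adjusted p = 0.0351) by limma. With the replicate block the adjusted p-values were 0.00266, 0.00318 and 0.0019. The calls without the block depended on the libraries: leaving out either WT TNF library kept all 3, and leaving out any of the other 6 libraries lost all 3, with adjusted p between 0.0523 and 0.259. With the block all 3 passed without any single library, the highest adjusted p being 0.0290.

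In wild-type cells the C1q genes were also lower after TNF, with values that spread more between the replicates. C1qa had 502 and 180 CPM in WT TNF cells, against 1039 and 926 CPM in WT day 0 cells. C1qb had 652 and 181 CPM in WT TNF cells, against 1644 and 1262 CPM in WT day 0 cells. C1qc had 396 and 130.3 CPM in WT TNF cells, against 1167 and 884 CPM in WT day 0 cells. The groups did not overlap for any of the 3 genes. The log2 differences were -1.71 ± 0.54, -2.07 ± 0.67 and -2.16 ± 0.65 for C1qa, C1qb and C1qc, and none passed without the block (adjusted p = 0.251, 0.267 and 0.228 by limma). With the block all 3 fell (adjusted p = 0.0341, 0.0267 and 0.0168 by limma), and all 3 calls were lost without WT TNF replicate 2 (0.214, 0.168 and 0.133) and without WT day 0 replicate 2 (0.225, 0.183 and 0.122).

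The 3 chain genes kept close to a common ratio. C1qb over C1qa ranged from 1.01 to 1.58 and C1qc over C1qa from 0.687 to 1.16 over the 8 libraries, while C1qa itself ranged from 112 to 1396 CPM. Both ratios were lower in replicate 2 than in replicate 1 of every group. Pearson r between the chains on log2(CPM + 0.5) was 0.996 to 0.998 over 8 libraries, which share groups and replicate numbers. Per kilobase of exon, C1qb was the highest of the 10 genes in KO TNF (199.97 CPM per kb), KO day 0 (1698) and WT day 0 (1336), and Cd36 was the highest in WT TNF (602, with C1qb at 383). Exon lengths are those of all annotated transcripts merged.

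Of the TAM receptors, Mertk was lower after TNF in RbpjKO cells and had no common direction in the wild-type replicates, and Axl was far higher in replicate 2 than in replicate 1 of every group. Mertk, the main TAM receptor of resting macrophages, had 46.5 and 65.4 CPM in KO TNF cells, against 109 and 245 CPM in KO day 0 cells. The groups did not overlap, with a log2 difference of -1.56 ± 0.61 that missed the threshold without the block (adjusted p = 0.228 by limma). With the block it fell by 1.56 (log2, ± 0.25) at an adjusted p of 0.00721 by limma, a call lost without KO day 0 replicate 2 (0.0661). In wild-type cells Mertk had 67.0 and 189 CPM after TNF, against 89.8 and 158 CPM at day 0. Those groups overlapped, replicate 1 being lower and replicate 2 higher after TNF, and the log2 difference was -0.08 ± 0.61 (adjusted p = 1 by limma, 0.863 with the block). The sign of the wild-type value was positive under TMM scaling (0.03), median-ratio scaling (0.04) and edgeR (0.24).

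Axl, the TAM receptor known to be induced by interferon, had 50.9 and 236 CPM in KO TNF cells, 45.1 and 703 CPM in KO day 0 cells, 20.5 and 123 CPM in WT TNF cells and 15.1 and 99.0 CPM in WT day 0 cells. In every group replicate 2 was the higher library, by 4.63 times in KO TNF, 15.6 times in KO day 0, 5.97 times in WT TNF and 6.54 times in WT day 0. The TNF difference on the log2 scale was -0.70 ± 1.62 in RbpjKO cells and 0.37 ± 1.62 in wild-type cells, and neither passed (adjusted p = 0.897 and 0.997 by limma, 0.227 and 0.586 with the block). A list of 12 type I interferon-stimulated genes, among them Isg15 and Ifit1, was added after the values were seen. It summed to 171 and 867 CPM in KO TNF, 276 and 4975 CPM in KO day 0, 144 and 3003 CPM in WT TNF and 197 and 1988 CPM in WT day 0 libraries. The sum was thus higher in replicate 2 of every group, as Axl and Mertk were. Within a replicate number Axl did not keep the order of the sum. In replicate 2 KO TNF had the lowest sum, but more Axl than either wild-type library. In replicate 1 Axl was highest in KO TNF, where the sum was below that of WT day 0. Mertk kept the order of the sum in replicate 2, and in replicate 1 apart from KO TNF. The part of the sum in the levels of the receptors was not tested.

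Axl was compared with Mertk within each library. Per kilobase of exon, Axl over Mertk was 0.944 and 3.11 in KO TNF, 0.358 and 2.48 in KO day 0, 0.264 and 0.559 in WT TNF and 0.145 and 0.541 in WT day 0 cells. In both replicates the ratio was higher in KO than in WT cells at the same time, and in every group it was higher in replicate 2 than in replicate 1. Tyro3, the other TAM receptor gene, was at most 0.507 CPM in any library.

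**Figure D2:**
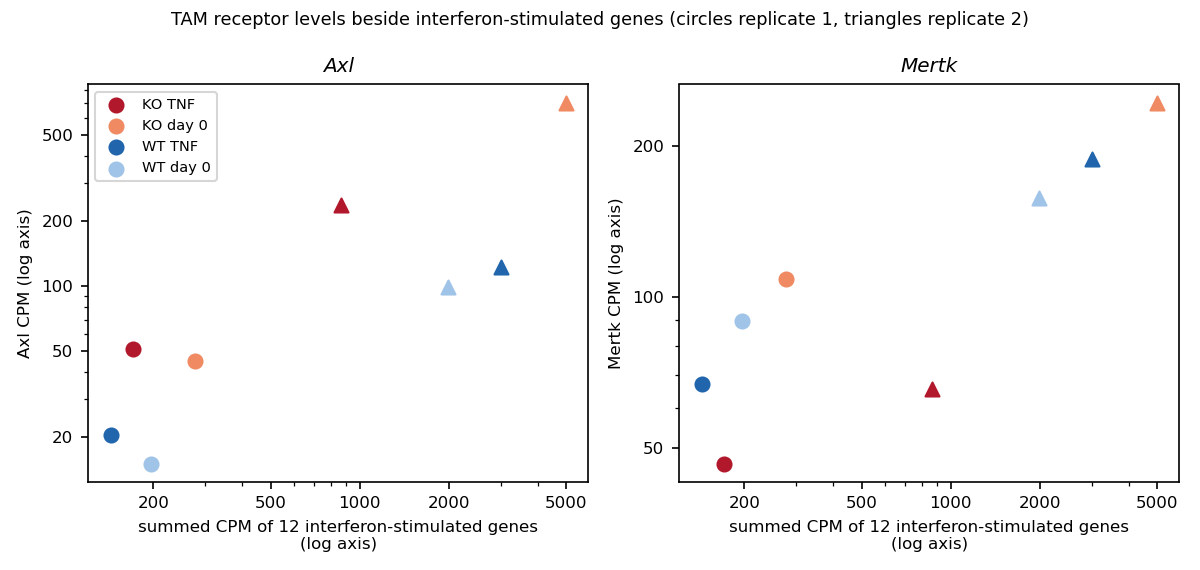
CPM of Axl and of Mertk against the summed CPM of 12 type I interferon-stimulated genes, log axes, 1 point per library, coloured by group with circles for replicate 1 and triangles for replicate 2. All 4 replicate 2 libraries had sums of 867 CPM or more and all 4 replicate 1 libraries sums of 276 CPM or less, with Axl at 99.0 CPM or more and at 50.9 CPM or less.

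Gas6 fell with TNF in both genotypes in the fit with the block. It had 107 and 88.3 CPM in KO TNF cells, against 972 and 331 CPM in KO day 0 cells, and 89.0 and 60.7 CPM in WT TNF cells, against 1010 and 487 CPM in WT day 0 cells. In each genotype both TNF libraries were below both day 0 libraries, as for 25.2% of tested genes in RbpjKO and 22.6% in wild-type cells. The log2 difference was -2.54 ± 0.58 in RbpjKO cells and -3.25 ± 0.58 in wild-type cells, just short of the threshold without the block (adjusted p = 0.0604 and 0.0619 by limma). With the block Gas6 passed in both genotypes (± 0.30 each, adjusted p = 0.00289 and 0.00282 by limma) and kept the call without any single library, the highest adjusted p being 0.0150 in RbpjKO and 0.0318 in wild-type cells. In wild-type cells this was the member that fell furthest.

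Pros1, the lowest member per kilobase of exon in all 4 groups, had 34.8 and 11.97 CPM in KO TNF cells, against 91.5 and 52.6 CPM in KO day 0 cells. In wild-type cells it had 22.5 and 11.5 CPM after TNF, against 45.2 and 46.8 CPM at day 0. Neither pair of groups overlapped. The log2 differences were -1.74 ± 0.58 and -1.48 ± 0.58 (adjusted p = 0.159 and 0.37 by limma). With the block both passed (0.0143 and 0.0444), and the calls were lost without any of 3 libraries in RbpjKO cells (KO TNF replicate 2, 0.0800; KO day 0 replicate 1, 0.0748; KO day 0 replicate 2, 0.0949) and of 5 in wild-type cells, with adjusted p up to 0.257. Those 5 were both KO day 0 libraries, both WT TNF libraries and WT day 0 replicate 2. The fewest reads behind any member value were the 227 of Pros1 in KO TNF replicate 2. Per kilobase, Gas6 over Pros1 was 4.93 and 11.8 in KO TNF, 17.1 and 10.1 in KO day 0, 6.35 and 8.45 in WT TNF and 35.9 and 16.7 in WT day 0 cells, so Gas6 was the more abundant ligand transcript in all 8 libraries.

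Gas6 and protein S are also made by stromal cells, and the 9 stromal markers, such as Col1a1 and Dcn, summed to 180 and 8.44 CPM in KO TNF, 162 and 4.62 CPM in KO day 0, 143 and 33.7 CPM in WT TNF and 119 and 6.01 CPM in WT day 0 libraries. The sums were higher in replicate 1 of every group, as were Gas6, Stab1, C1qa, C1qb and C1qc in all 4 groups and Pros1 in all but WT day 0. The replicate 1 sums were mostly Col1a1 and Col1a2. Thy1 was instead higher in replicate 2 of every group, and Dcn was so in WT TNF (0.841 and 1.91 CPM). Of the 9 markers 1 was under 1 CPM in all libraries and none was at 0 in all. Within each genotype and replicate number the stromal sum was higher after TNF than at day 0, while Gas6 and Pros1 were lower. The part of stromal cells in the ligand levels was not tested.

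Of the scavenger receptors, Stab1 went with C1q over the libraries, while Cd36 and Msr1 had TNF and day 0 groups that stood apart in RbpjKO cells and overlapped in wild-type cells. Stab1, for stabilin-1, had 543 and 100.3 CPM in KO TNF cells, against 3661 and 1261 CPM in KO day 0 cells, and 1385 and 363 CPM in WT TNF cells, against 3898 and 1834 CPM in WT day 0 cells. The TNF and day 0 libraries of a genotype did not overlap. The log2 differences were -3.20 ± 1.03 in RbpjKO and -1.91 ± 1.03 in wild-type cells (adjusted p = 0.145 and 0.574 by limma). With the block both passed (± 0.33 each, adjusted p = 0.00186 and 0.0182 by limma). The call in RbpjKO cells held without any single library, and that in wild-type cells was lost without WT TNF replicate 1 (0.0718), WT TNF replicate 2 (0.154) or WT day 0 replicate 2 (0.117). Pearson r of Stab1 with the 3 C1q genes was 0.923 to 0.937 over the 8 libraries. The ligand genes were not far below, with 0.889 to 0.919 for Pros1 and 0.859 to 0.886 for Gas6.

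Cd36, the fatty acid and oxidised lipoprotein receptor, had 813 and 178 CPM in KO TNF cells, against 2255 and 1161 CPM in KO day 0 cells. In wild-type cells it had 1407 and 2913 CPM after TNF, against 2433 and 3930 CPM at day 0. The RbpjKO groups did not overlap and the wild-type groups did. The log2 differences were -2.09 ± 0.78 and -0.61 ± 0.78 (adjusted p = 0.207 and 0.934 by limma), and neither passed with the block (0.0864 and 0.637). Replicate 2 was the lower Cd36 library in both RbpjKO groups and the higher one in both wild-type groups.

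Msr1, for scavenger receptor A, had 713 and 617 CPM in KO TNF cells, against 1497 and 2118 CPM in KO day 0 cells, and 1022 and 1487 CPM in WT TNF cells, against 886 and 2563 CPM in WT day 0 cells. Again the RbpjKO groups stood apart and the wild-type groups overlapped. The log2 differences were -1.42 ± 0.53 and -0.29 ± 0.53 (adjusted p = 0.203 and 0.972 by limma). With the block Msr1 passed in RbpjKO cells (0.0405) and not in wild-type cells (0.667), and the RbpjKO call was lost without KO TNF replicate 2 (0.223), KO day 0 replicate 1 (0.164), KO day 0 replicate 2 (0.167), WT TNF replicate 1 (0.0715) or WT TNF replicate 2 (0.0707). edgeR on the recovered reads with the block gave 0.0524 for it in RbpjKO cells.

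**Figure D3:**
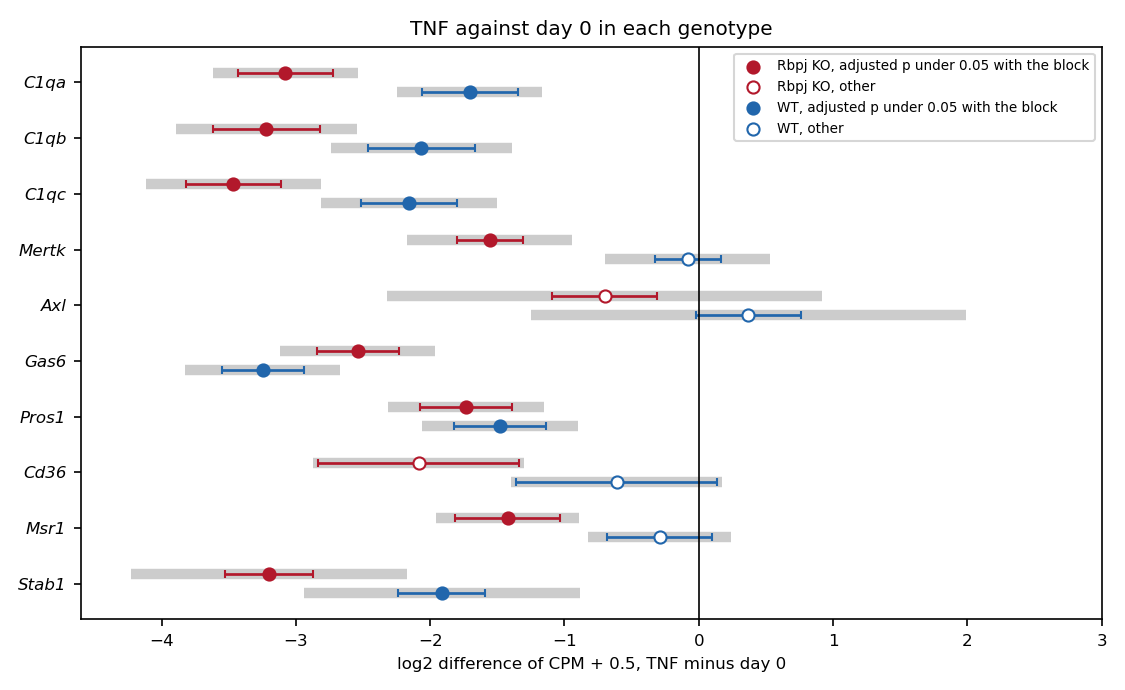
Log2 difference (TNF minus day 0, on log2(CPM + 0.5)) of the 10 genes in RbpjKO and wild-type cells; thick grey bars are the standard error without and thin coloured bars with the replicate block, and filled points had an adjusted p under 0.05 with the block. All 10 values were below 0 in RbpjKO cells (8 filled), and 9 of 10 in wild-type cells (6 filled).

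Counted over the 10 genes, 3 fell and 0 rose after TNF in RbpjKO cells, where 2.01% of all tested genes fell and 3.09% rose. The 3 were the C1q genes, which went together over the libraries. Here and in the counts that follow they are not 3 separate observations. With the block 8 fell, all but Axl and Cd36, where 13.7% of tested genes fell and 12.2% rose. edgeR on the recovered reads called the same number without the block, 3 (1.51% of genes fell), and 7 with it (12.1%). In 9 of the 10 genes both TNF libraries were below both day 0 libraries, a pattern that 25.2% of tested genes showed. The median log2 difference of the 10 was -2.31, against -0.10 over all tested genes. In wild-type cells 0 of the 10 passed by limma, where 0.369% of tested genes fell and 0.812% rose, and 0 by edgeR. At an unadjusted p under 0.05 in limma there were 5 of the 10, against 12.1% of all tested genes. With the block 6 fell (C1qa, C1qb, C1qc, Gas6, Pros1 and Stab1), where 4.71% of genes fell and 5.54% rose, and edgeR with the block also called 6 (3.76% of genes fell). The groups did not overlap, with TNF lower, for 6 of the 10, against 22.6% of tested genes. The median was -1.59, against -0.12 over all tested genes, and median-ratio scaling moved that median of all genes to 0.00062.

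After TNF, the 10 genes were mostly lower in RbpjKO than in wild-type cells, and 1 passed the test in the fit with the block. Stab1 had 543 and 100.3 CPM in KO TNF cells, against 1385 and 363 CPM in WT TNF cells, and with the block it fell by 1.60 (log2, ± 0.33) at an adjusted p of 0.037 by limma, where 3.75% of tested genes were called lower and 5.53% higher. Without the block its adjusted p was 0.708. The call was lost without either KO day 0 library, either WT TNF library or KO TNF replicate 2, with adjusted p between 0.0650 and 0.215. edgeR with the block also called Stab1 alone (adjusted p = 0.0426, 2.86% of genes called lower). Without the block 0 of the 10 passed by limma, where 0.0082% of tested genes were called in either direction, and 0 by edgeR. At an unadjusted p under 0.05 in limma there was 1 of the 10, near the 11.3% of all tested genes.

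Mertk, Cd36 and Msr1 had both KO TNF libraries below both WT TNF libraries, against 16.1% of tested genes with that order. Mertk had 46.5 and 65.4 CPM in KO TNF cells, against 67.0 and 189 CPM in WT TNF cells, so the gap was small in replicate 1. Its log2 difference was -1.02 ± 0.61 (adjusted p = 0.668 by limma; ± 0.25 and 0.0522 with the block). Cd36 had 813 and 178 CPM in KO TNF cells, against 1407 and 2913 CPM in WT TNF cells, the largest difference of the 10 at -2.41 ± 0.78 (adjusted p = 0.3 by limma, 0.0968 with the block). Its standard error hardly changed with the block (± 0.75); replicate 2 was the lower library in RbpjKO and the higher in wild-type cells. Msr1 differed by -0.89 ± 0.53 (adjusted p = 0.659 by limma, 0.199 with the block).

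The C1q genes were lower in KO TNF than in WT TNF cells of the same replicate number, with groups that overlapped. C1qa had 227 and 112 CPM against 502 and 180 CPM, a log2 difference of -0.91 ± 0.54, and C1qb and C1qc differed by -0.80 ± 0.67 and -0.82 ± 0.65. None of the 3 passed (adjusted p = 0.657 to 0.836 by limma, 0.162 to 0.25 with the block). Axl, Gas6 and Pros1 had positive values, 1.12 ± 1.62, 0.40 ± 0.58 and 0.33 ± 0.58, and did not pass either (adjusted p = 0.968 to 0.98 by limma, 0.126 to 0.575 with the block). The median over the 10 was -0.86, against 0.02 over all tested genes. Marker sums differed between these groups as well: the osteoclast sum was higher and the macrophage sum lower in KO TNF than in WT TNF libraries of the same number. Within the macrophage sum, Csf1r was lower in replicate 1 (2078 against 2706 CPM) and slightly higher in replicate 2 (3266 against 3164 CPM). The part of these markers in the differences was not tested.

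At day 0, none of the 10 genes passed the comparison of RbpjKO with wild-type cells. By limma 0 passed, where 0% of tested genes were called, with 0 at an unadjusted p under 0.05 (1.34% of all tested genes) and 0 by edgeR. With the block 0 passed, where 0.0082% of tested genes were called, and 1 of the 10 had an unadjusted p under 0.05, against 5.98% of all tested genes. That gene was Axl, with 45.1 and 703 CPM in KO day 0 cells, against 15.1 and 99.0 CPM in WT day 0 cells, and a log2 difference of 2.18 ± 1.62 (± 0.39 and adjusted p = 0.274 with the block). C1qa, C1qb, C1qc and Pros1 had both KO day 0 libraries above both WT day 0 libraries, against 9.86% of tested genes, at log2 differences of 0.46 ± 0.54, 0.35 ± 0.67, 0.49 ± 0.65 and 0.59 ± 0.58. Cd36 had both below, against 8.66% of tested genes, at -0.93 ± 0.78. Mertk and Msr1 were at 0.45 ± 0.61 and 0.24 ± 0.53, and Gas6 and Stab1 at -0.31 ± 0.58 and -0.32 ± 1.03. The median over the 10 was 0.40, against 0.01 over all tested genes.

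**Figure D4:**
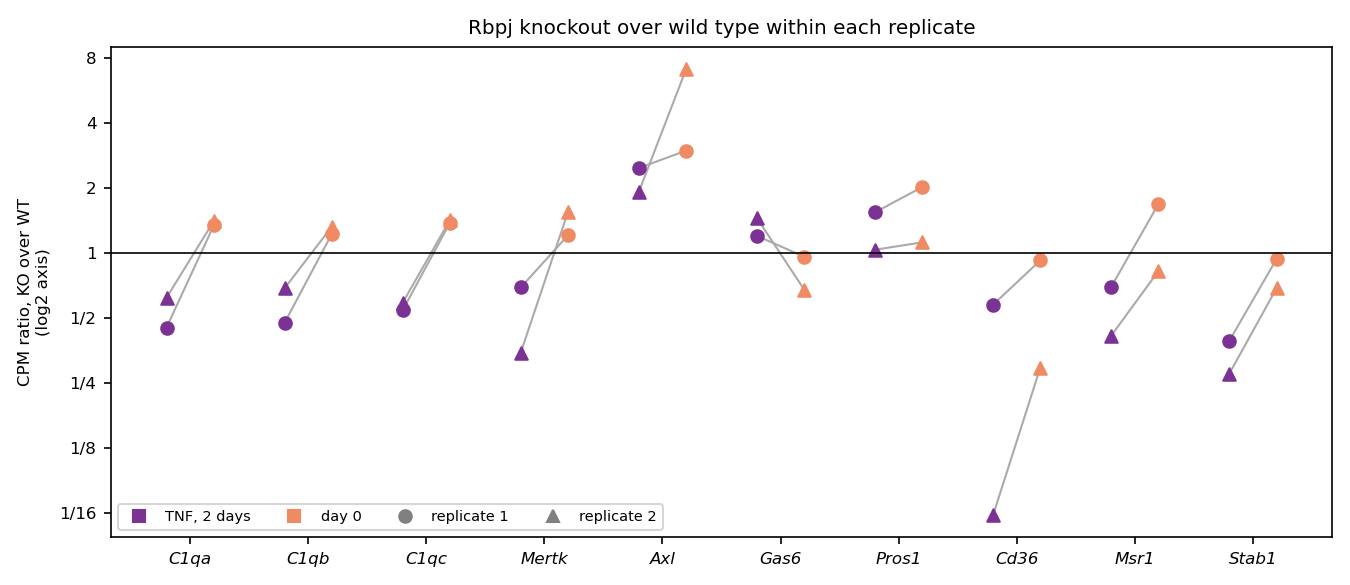
RbpjKO over wild-type CPM (log axis) of the 10 genes within each replicate number, after TNF on the left and at day 0 on the right of each pair, circles for replicate 1 and triangles for replicate 2. C1qa, C1qb, C1qc and Mertk lay below 1 after TNF and above 1 at day 0 in both replicates.

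The difference of the TNF responses asked whether the genes moved more in RbpjKO than in wild-type cells. C1qa, C1qb, C1qc and Mertk were below wild type after TNF and above it at day 0 in both replicate numbers, an order that 9.89% of all tested genes showed. The difference of the responses (RbpjKO minus wild type) was -1.48 ± 0.87 for Mertk, -1.37 ± 0.76 for C1qa, -1.16 ± 0.95 for C1qb and -1.31 ± 0.92 for C1qc on the log2 scale. None of the 10 passed: limma called 0, where 0% of tested genes were called, with 0 at an unadjusted p under 0.05 (5.65% of all tested genes), and edgeR called 0. With the block 0 passed, where again 0% of tested genes were called. At an unadjusted p under 0.05 with the block there were 4 (Mertk, Stab1, C1qa and C1qc), against 17.98% of all tested genes. The lowest adjusted p with the block was 0.131, for Mertk (± 0.35). Of the other genes, Stab1 was at -1.28 ± 1.45, Msr1 at -1.13 ± 0.75, Cd36 at -1.47 ± 1.11, Axl at -1.07 ± 2.29, Pros1 at -0.25 ± 0.82 and Gas6 at 0.71 ± 0.82. The median was -1.22, against 0.01 over all tested genes. A larger fall of these genes in RbpjKO cells was therefore not shown by the test of the difference itself.

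Other genes of the same pathway were read from lists that hold none of the 10. The counts of each list below stand beside these shares of all tested genes. After TNF in RbpjKO cells 2.01% fell and 3.09% rose, and with the block 13.7% and 12.2%. In wild-type cells 0.369% fell and 0.812% rose, and with the block 4.71% and 5.54%. Between KO TNF and WT TNF cells 3.75% were lower and 5.53% higher with the block. Of 18 other receptors and bridging proteins of efferocytosis, 13 were kept by the filter. In RbpjKO cells given TNF 3 fell and 0 rose: Cd300lf (-4.13 ± 0.80, adjusted p = 0.0387 by limma) and Cd300lb (-1.76 ± 0.25, 0.0158), lipid-binding receptors of the CD300 family, and Itgb5 (-2.50 ± 0.33, 0.0136), the integrin beta 5 chain. With the block 6 fell and 4 rose, led among the risers by Itgb3 (4.54 ± 0.27, adjusted p = 0.00057 by limma), the integrin beta 3 chain that osteoclasts also carry, and Mfge8 (2.15 ± 0.48, 0.0211), a bridging protein between phosphatidylserine and integrins. In wild-type cells 0 of the 13 passed without the block, and with it Scarf1 rose (1.64 ± 0.17, adjusted p = 0.00422 by limma) and Itgb5 fell (-1.70 ± 0.29, 0.0191). Between KO TNF and WT TNF cells, 2 were higher with the block, Itgb3 (4.35 ± 0.27, adjusted p = 0.00417 by limma) and Itgav (2.11 ± 0.41, 0.0324), and 2 lower, Cd14 (-1.61 ± 0.22, 0.0201) and Cd300lb (-1.09 ± 0.20, 0.0284). The list's median TNF difference was -1.10 in RbpjKO and 0.10 in wild-type cells.

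Of 18 genes of engulfment and the phagosome, 16 were kept. In RbpjKO cells given TNF, Dock2 (-1.84 ± 0.26, adjusted p = 0.0156 by limma) and Dock1 (-1.57 ± 0.22, 0.0150), exchange factors for Rac, fell and 0 rose. With the block 4 of the 16 fell and 1 rose, where 13.7% of tested genes fell and 12.2% rose. The riser was the GTPase gene Rac2 (1.52 ± 0.31, adjusted p = 0.0161 by limma). In wild-type cells 0 passed without the block, and with it 2 fell (Elmo1 and Elmo2) and 2 rose, Abca1 (1.91 ± 0.35, adjusted p = 0.022 by limma), a cholesterol exporter, and Abca7 (0.88 ± 0.15, 0.0199). Between KO TNF and WT TNF cells 4 were lower and 0 higher with the block: Abca1 (-1.56 ± 0.35, adjusted p = 0.0442 by limma), Dock2 (-1.22 ± 0.21, 0.0263), Dock1 (-1.12 ± 0.15, 0.0201) and Abca7 (-0.74 ± 0.15, 0.0383). The list's median TNF difference was 0.02 in RbpjKO and -0.16 in wild-type cells, near that of all tested genes.

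Of 12 other scavenger receptors, 10 were kept. Mrc1, the mannose receptor, fell in RbpjKO (-3.60 ± 0.28, adjusted p = 0.00457 by limma) and in wild-type cells (-3.74 ± 0.28, 0.01), with values of 59.7 and 88.1 CPM in KO TNF and 881 and 892 CPM in KO day 0 cells. Without the block it was the only gene of the list to pass in either genotype. With the block 3 fell and 1 rose in RbpjKO cells and 2 fell and 2 rose in wild-type cells, the risers being Olr1, the oxidised LDL receptor LOX-1, in RbpjKO (2.83 ± 0.45, adjusted p = 0.00718 by limma) and wild-type cells (4.28 ± 0.45, 0.00416), and Marco in wild-type cells (6.99 ± 1.44, 0.0327). After TNF, Scarb2 was lower in RbpjKO than in wild-type cells with the block (-1.05 ± 0.23, adjusted p = 0.0436 by limma).

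Of 9 genes listed for the classical complement pathway beside C1q, 7 were kept. The list held Cd93 and Calr beside the complement component genes. C3 and the C1 protease genes moved opposite to C1q in wild-type cells. In wild-type cells C3, the central complement component (6.04 ± 0.92, adjusted p = 0.0416 by limma), and C1s1, a protease of the C1 complex (4.27 ± 0.49, 0.0215), rose after TNF, and with the block C1ra, the partner protease of C1s1, rose too (2.59 ± 0.27, 0.00422) and Cd93 fell (-2.72 ± 0.36, 0.00811). In RbpjKO cells Cd93 fell (-3.34 ± 0.52, adjusted p = 0.0215 by limma), and with the block C3 rose (3.56 ± 0.49, 0.00446). Between KO TNF and WT TNF cells C1s1 (-2.96 ± 0.46, adjusted p = 0.0223 by limma) and C1ra (-1.83 ± 0.27, 0.022) were lower with the block. The C1 proteases thus rose in wild-type cells while the C1q chains fell there, both in the fit with the block. The protease transcripts were far scarcer than the C1q chains. C1s1 had 6.34 and 14.1 CPM in WT TNF cells, against 0 and 0.0371 CPM in WT day 0 cells. The size of its log2 difference therefore depends on the 0.5 added to CPM. C1ra had 11.8 and 31.8 CPM in WT TNF cells, against 1.93 and 4.01 CPM in WT day 0 cells.

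Of 12 transcription factors known to control such genes, all 12 were kept. In RbpjKO cells given TNF Pparg (-4.38 ± 0.38, adjusted p = 0.00513 by limma), Maf (-3.06 ± 0.31, 0.00706) and Rxra (-1.43 ± 0.20, 0.0146) fell, and Irf8 (-2.04 ± 0.15, 0.00088) fell with the block. Pparg encodes a lipid-sensing nuclear receptor, and Maf a transcription factor of mature macrophages. In wild-type cells Pparg (-3.98 ± 0.38, adjusted p = 0.0151 by limma) and Maf (-2.11 ± 0.31, 0.0386) fell, and Rxra fell with the block (-0.59 ± 0.14, 0.0444). Nr1h3, for the oxysterol receptor LXR alpha, rose with the block in RbpjKO (1.58 ± 0.29, adjusted p = 0.0113 by limma) and wild-type cells (2.32 ± 0.29, 0.00701). After TNF, Irf8 (-1.52 ± 0.15, adjusted p = 0.0165 by limma) and Maf (-1.03 ± 0.17, 0.0257) were lower in RbpjKO than in wild-type cells with the block.

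Of 10 genes that process TAM ligands or receptors or act downstream of them, 0 passed without the block in any contrast. With it, Adam17, the protease that sheds MERTK, rose in wild-type cells given TNF (0.94 ± 0.18, adjusted p = 0.0266 by limma) and was lower in KO TNF than in WT TNF cells (-0.97 ± 0.18, 0.0298), and Ptk2, for focal adhesion kinase, was lower there too (-1.76 ± 0.37, 0.0391). Socs3, a cytokine signalling inhibitor, rose in wild-type cells (3.70 ± 0.60, adjusted p = 0.0164 by limma), and Adam10 fell in RbpjKO cells (-0.88 ± 0.20, 0.0229). Of 7 phagocytosis checkpoint genes, Pilra rose in wild-type cells (3.21 ± 0.33, adjusted p = 0.0173 by limma) and Pecam1 fell in RbpjKO cells with the block (-2.37 ± 0.32, 0.00409). At day 0 none of the genes on these 7 lists passed in either fit, nor did any in the difference of the responses.

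The genes most like the members were named by Pearson r over the 8 libraries, among 10522 genes. To the mean of the 3 C1q genes on the log2 scale the 5 closest were Fgd2 (0.997), Dcakd (0.994), Uvrag (0.992), Ap1b1 (0.990) and Pygb (0.989). Fgd2 had 7.10 and 2.64 CPM in KO TNF, 62.7 and 64.7 CPM in KO day 0, 16.7 and 3.65 CPM in WT TNF and 47.4 and 38.7 CPM in WT day 0 cells. Genes close to Mertk were Pde7b (0.996), Psme1 (0.988), Bst2 (0.986) and Fbxw17 (0.985). Bst2, an interferon-induced gene, had 101 and 108 CPM in KO TNF, 175 and 379 CPM in KO day 0, 127 and 308 CPM in WT TNF and 159 and 301 CPM in WT day 0 cells. Mertk was less like Axl (0.563) than like Msr1 (0.862). These are the ranked extremes of many genes over libraries that share groups and replicate numbers, and serve as a description.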

How the data were processed

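Poly-A RNA of mouse macrophages was sequenced in 8 libraries. The deposited values are CPM, made by the authors with fastp, HISAT2, HTSeq and edgeR on mm10, per the submitters' processing notes; versions, annotation and strand setting: not given in the sources used here. All CPM values were whole multiples of 1 read (100% within 0.01), so reads were recovered for depth and for edgeR.

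The test was limma (lmFit, eBayes with trend, 2-sided) on log2(CPM + 0.5), which understates changes of low genes, over the 12194 genes that reached 1 CPM in 2 or more libraries. It used all 8 libraries, group only, with 4 residual degrees of freedom, and Benjamini-Hochberg adjustment over all genes of each of 5 contrasts. edgeR's quasi-likelihood test called 497 genes for TNF in RbpjKO and 60 in wild-type cells. Versions were R 4.3.3, limma 3.58.1 and edgeR 4.0.16. Replicates differed by more than sampling noise.

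The replicate numbers were taken to pair the libraries: deviations of replicate 2 from 1, across genes, correlated between all 6 pairs of groups (Pearson r 0.577 to 0.805), and the series reports 2 independent experiments. The fit with this block has 3 residual degrees of freedom.

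The members and lists were chosen with earlier results of these data known. Named genes are all 10 members, up to 4 called genes of each list and contrast by size, up to 2 genes of a marker list, and the 5 genes most correlated with the C1q mean and with Mertk. Further markers are named where they set a sum or departed from it. Some genes so named are not reported here. The interferon list was added after the values were seen.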

Additional observations from a re-analysis of the deposited data

How the results depend on the processing

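The number of the 10 genes called for TNF in RbpjKO cells was 3, and it was 8 with the replicate block, 7 by edgeR with the block, 8 under TMM or median-ratio scaling with the block, 1 with no filter on low values and 0 in a fit of the 4 libraries of the contrast. It ranged from 0 to 9 when 1 library was left out. Each range given here and below for 1 library left out covers the fits with and without the block together. In wild-type cells it was 0, and 6 with the block, 6 by edgeR with the block, 6 under TMM and 5 under median-ratio scaling with the block, and from 0 to 6 with 1 library left out. For RbpjKO against wild type after TNF it was 0, and 1 under each of these 4 fits with the block, and from 0 to 3 with 1 library left out. The pseudocounts, TMM and median-ratio scaling and edgeR without the block left these counts within 1.5 times. At day 0 and for the difference of the responses 0 passed under every alternative run. The scaled fits with the block were chosen after seeing the data. Values whose sign turned did so when 1 library was left out, and none had passed a test. For TNF in RbpjKO cells this was Axl (-2.67 to 1.27). For TNF in wild-type cells these were Axl (-0.97 to 1.70), Cd36 (-1.54 to 0.32), Msr1 (-1.06 to 0.48) and Mertk (-0.83 to 0.66), which was also positive under TMM (0.027) and median-ratio scaling (0.043) with and without the block and by edgeR (0.24, or 0.060 with the block). After TNF these were Axl (-0.16 to 2.39), C1qb (-1.73 to 0.12) and Pros1 (-0.42 to 1.09). At day 0 these were C1qb (-0.10 to 0.81), Gas6 (-1.08 to 0.47), Mertk (-0.13 to 1.04), Msr1 (-0.53 to 1.01) and Stab1 (-1.08 to 0.45). In the difference of the responses these were Axl (-3.04 to 0.90), Gas6 (-0.070 to 1.48) and Pros1 (-1.003 to 0.50). The causes were not tested. With 2 libraries a group, a value that missed the threshold does not show that a gene did not differ.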

Other observations

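Other cell types were read from marker lists. The 7 neutrophil markers in the table, such as S100a8 and Mpo, summed to 32.7 and 49.99 CPM in KO TNF and 60.3 and 139 CPM in WT TNF libraries, against 179 and 994 CPM in KO day 0 and 140 and 832 CPM in WT day 0 libraries. S100a8 went against the sum in replicate 1, with 21.4 CPM in KO TNF against 17.8 CPM in KO day 0. In wild-type replicate 1 it had 48.2 CPM after TNF against 13.8 CPM at day 0. The 7 dendritic cell markers, such as Itgax, summed to 99.6 and 394 CPM in KO TNF and 58.4 and 566 CPM in WT TNF libraries, against 18.0 and 95.8 CPM in KO day 0 and 12.4 and 20.3 CPM in WT day 0 libraries. Itgax alone made up most of these sums, with 94.6 and 366 CPM in KO TNF and 55.7 and 555 CPM in WT TNF libraries, against 13.2 and 72.1 CPM in KO day 0 and 9.04 and 17.1 CPM in WT day 0 libraries. Flt3 had 0.507 and 5.75 CPM in KO TNF and 0.337 and 1.14 CPM in WT TNF libraries, against 1.29 and 8.13 CPM in KO day 0 and 0.765 and 0.742 CPM in WT day 0 libraries. The 6 platelet and megakaryocyte markers, such as Pf4, summed to 164 and 41.7 CPM in KO TNF and 173 and 98.8 CPM in WT TNF libraries, against 395 and 318 CPM in KO day 0 and 287 and 387 CPM in WT day 0 libraries. Pf4 alone made up most of each sum. It had 157 and 30.7 CPM in KO TNF and 162 and 58.1 CPM in WT TNF libraries. At day 0 it had 359 and 228 CPM in KO and 266 and 279 CPM in WT libraries. The 7 endothelial markers summed to 23.2 to 132 CPM, the 7 lymphocyte markers to 0.729 to 13.5 CPM and the 4 adipocyte markers to at most 0.101 CPM.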
